A study of Mus musculus with 27 samples.

Results

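The interferon regulatory factors (IRFs) are a family of transcription factors, and 8 of their genes were followed here through acute and repeated Toll-like receptor (TLR) stimulation of mouse bone marrow-derived macrophages (BMDMs). The members were the genes named Irf1, Irf2, Irf3, Irf4, Irf5, Irf7, Irf8 and Irf9 in the array files, 8 of 34844 gene names and 9 of 55681 non-control probes. BMDMs from female C57BL/6 mice aged 6 to 8 weeks were left untreated (naïve), or received LPS, CpG, Pam3CSK4 or Poly(I:C) for 4 h (acute), or received a ligand for 24 h, were washed, rested for 1 h and met that ligand again for 4 h (re-stimulated). The dose of Poly(I:C) was 10 µg/ml and that of Pam3CSK4 or LPS 100 ng/ml, while for CpG the labels give 100 µM and the methods 1 µM. All cells were wild type and were differentiated for 7 days in medium conditioned by L929 fibroblasts, a source of the growth factor M-CSF. RNA from 27 cultures was hybridised to 1-colour Agilent arrays, and 25 arrays carried deposited values, so re-stimulated LPS (replicates 1 and 2) and acute Pam3CSK4 (replicates 1 and 3) had n = 2 and the other 7 groups n = 3. Replicates are described both as different mice and as pools of 3 mice, so the p-values measure the spread between these cultures.

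IRFs share a DNA-binding domain that recognises the interferon-stimulated response element (ISRE), and they differ in how they are switched on. Irf3 and Irf7 are phosphorylated downstream of the adapters TRIF and MyD88 and turn on type I interferon genes. Interferon then acts through ISGF3, a complex with Irf9 as its DNA-binding subunit, which raises many interferon-stimulated genes, Irf7 among them. Irf1 is a transcriptional activator induced by NF-κB and by interferon signalling, Irf2 occupies the same sites and often opposes it, Irf5 acts downstream of MyD88 on inflammatory cytokine genes, and Irf4 and Irf8 work with partners such as PU.1 in myeloid and lymphoid cells. Among the ligands, LPS acts on TLR4 through MyD88 and TRIF, Poly(I:C) on TLR3 through TRIF, and CpG (TLR9) and Pam3CSK4 (TLR2 with TLR1) through MyD88.

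Promoter sequences of the members whose levels moved most are shown because the motifs in them name regulators whose own genes were also measured. In the RefSeq annotation of GRCm38.p6, all 8 members had a start site, with 11 promoters in all, and the 250 bases before each start were searched on both strands. The 3 motifs were the ISRE core (GAAANNGAAA), the STAT site known as GAS (TTCNNNGAA) and the NF-κB site. Of 32851 promoters of that length, 2.98% held the ISRE core, 7.02% the GAS and 7.25% the NF-κB site. The sequences run 5′ to 3′ on the gene's strand, and capitals mark the matches.
Irf1, chr11:53769764-53770013 (+): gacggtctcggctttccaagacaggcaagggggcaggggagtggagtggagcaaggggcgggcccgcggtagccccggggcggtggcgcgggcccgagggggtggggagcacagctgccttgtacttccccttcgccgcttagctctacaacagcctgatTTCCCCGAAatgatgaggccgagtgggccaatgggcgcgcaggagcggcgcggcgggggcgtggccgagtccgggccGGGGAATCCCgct
Irf2, chr8:46739495-46739744 (+): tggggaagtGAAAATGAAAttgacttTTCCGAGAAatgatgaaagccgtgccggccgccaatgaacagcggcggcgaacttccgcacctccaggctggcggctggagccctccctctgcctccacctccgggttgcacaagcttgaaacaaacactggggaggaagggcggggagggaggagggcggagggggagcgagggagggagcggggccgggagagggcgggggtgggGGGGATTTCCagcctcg
Irf8, chr8:120736108-120736357 (+): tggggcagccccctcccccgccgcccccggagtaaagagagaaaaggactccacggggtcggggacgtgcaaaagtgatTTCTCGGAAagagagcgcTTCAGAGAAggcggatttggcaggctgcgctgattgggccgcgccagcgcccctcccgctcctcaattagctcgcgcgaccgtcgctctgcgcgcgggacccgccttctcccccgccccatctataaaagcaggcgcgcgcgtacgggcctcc
Irf7, chr7:141266425-141266674 (−): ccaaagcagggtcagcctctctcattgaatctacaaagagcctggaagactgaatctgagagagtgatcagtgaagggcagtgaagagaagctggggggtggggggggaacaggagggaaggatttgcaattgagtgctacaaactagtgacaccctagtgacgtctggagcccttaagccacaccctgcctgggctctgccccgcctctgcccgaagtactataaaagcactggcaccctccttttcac
The Irf1 promoter held a GAS that begins 90 bases before the start and an NF-κB match that begins 13 bases before it. Irf2 held matches to all 3 motifs, the ISRE core at 241, the GAS at 224 and the NF-κB site at 17 bases before the start. Irf8 held GAS matches at 171 and 153 bases, and its other promoter held none. Irf3, Irf4, Irf5, Irf7 and Irf9 had no match to any of these letters in the window.

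The array probes lie elsewhere, in the transcripts, and their positions are given on mm9. The Irf1 probe used lies at chr11:53590746-53590805, and another Irf1 probe, designed to a different RefSeq transcript, lies at chr11:53591817-53591876. The Irf2 probe lies at chr8:47932486-47932545, Irf3 at chr7:52257700-52257759, Irf4 at chr13:30858532-30858591, and Irf5 at chr6:29486901-29486960. Irf7 is read at chr7:148450664-148451014, Irf8 at chr8:123280324-123280383 and Irf9 at chr14:56228806-56228865. Signals were well above background on 25 of 25 arrays for these members except Irf4, which passed on 8 of 25. The second Irf1 probe passed on 13 of 25.

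Between 42.05% and 54.29% of probes were well above background on the arrays used other than naïve replicate 3, which stood apart at 74.61%. The 8 macrophage markers were above background on 25 of 25 arrays, among them Csf1r at 16.96 to 18.3 on the log2 scale, while of the 3 T cell markers Cd8a passed on 1 array, Cd3g on 2 and Cd3e on 25, and of the B cell markers Cd79a passed on 25 and Ms4a1 on 1. The summed log2 level of 3 neutrophil markers (Ly6g, Elane and Mpo) was 26.8 to 34.8 on the arrays of replicates 1 and 2 outside acute LPS, 16.5 to 21.1 on those of replicate 3 and 18.9 to 22.1 on the acute LPS arrays. Acute LPS was hybridised on 3 slides of its own and scanned on other days, whereas the other 8 groups shared 3 slides, each holding 1 replicate number. Slide and stimulus therefore cannot be told apart for acute LPS, and its part in the results below was not tested, nor was that of the neutrophil markers. In bulk RNA, fewer cells that express a gene and less RNA per cell cannot be told apart.

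Irf1, a transcriptional activator, was higher in the acute response than in naïve cells and lower again after re-stimulation. Its log2 levels in naïve cells were 12.74, 13.1 and 13.03. After acute treatment they were 16.25, 16.59 and 16.48 with LPS, 17.28, 17.1 and 16.16 with Poly(I:C), 15.29, 15.35 and 16.36 with CpG, and 14.94 and 13.51 with Pam3CSK4. Every acute array lay above every naïve array. The rise passed the test (limma, Benjamini-Hochberg adjusted p below 0.05 and at least 1.5-fold) for LPS at 3.48 log2 units or 11.2-fold (SE 0.2, adjusted p = 0.000399), for Poly(I:C) at 3.89 or 14.8-fold (SE 0.33, adjusted p = 0.00515) and for CpG at 2.71 or 6.55-fold (SE 0.33, adjusted p = 0.0163). The Pam3CSK4 difference of 1.26 did not pass (SE 0.47, adjusted p = 0.387). For the ligands on shared slides the change within each slide ran from 2.24 to 3.33 for CpG and from 3.14 to 4.54 for Poly(I:C). The CpG call was lost without naïve replicate 1 or 2 (adjusted p = 0.0732 and 0.0774) or without acute CpG replicate 1 or 2 (0.0591 and 0.0722).

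On re-stimulation Irf1 read 13.01 and 13.44 with LPS, 13.43, 13.35 and 13.77 with CpG, 15.07, 15.01 and 15.09 with Poly(I:C), and 11.14, 11.44 and 12.46 with Pam3CSK4. Within each ligand no re-stimulated array reached an acute array. Against the acute response Irf1 fell by 3.21 log2 units with LPS (SE 0.23, adjusted p = 0.000591), by 2.15 with CpG (SE 0.32, adjusted p = 0.031) and by 1.79 with Poly(I:C) (SE 0.31, adjusted p = 0.0371). The Pam3CSK4 difference was -2.54 and did not pass (SE 0.57, adjusted p = 0.207). It was called under 2 of 11 other settings, among them the fit of all 9 groups (adjusted p = 0.00417). Within slides the difference was -2.2 to -1.08 for Poly(I:C), -2.6 to -1.87 for CpG and -3.8 to -1.04 for Pam3CSK4. The CpG call was lost on leaving out any of 5 of its 6 arrays, all but acute replicate 3 (adjusted p from 0.062 to 0.117), and the Poly(I:C) call on leaving out replicate 1 or 2 of either stage (0.12 to 0.132). With Poly(I:C) Irf1 still stood 2.1 log2 units (4.28-fold) above naïve cells after re-stimulation (SE 0.18, adjusted p = 0.00592), with 1.9 to 2.33 within slides. With Pam3CSK4 all 3 re-stimulated arrays were below all naïve arrays, by 1.28 on average, which did not pass (SE 0.37, adjusted p = 0.101). This was called under 3 of 11 other settings, among them the fit of all 9 groups (adjusted p = 0.0253). The second Irf1 probe was called in the same direction as the first in the LPS, CpG and Poly(I:C) acute responses, at 3.76, 3.5 and 3.67 against a naïve level that was above background on 1 of 3 arrays, and fell at least 5.88-fold with LPS and at least 3.02-fold with CpG on re-stimulation, bounds set by signals not well above background. Its Poly(I:C) difference between the stages, -1.26, was not called (SE 0.44, adjusted p = 0.137).

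Irf2, which binds the sites that Irf1 uses, varied over a narrower range. The naïve levels were 10.79, 10.59 and 9.72, the third from the array that stood apart. Acute LPS gave 11.99, 11.83 and 11.12 and acute Poly(I:C) 11.89, 11.82 and 11.53, all above the naïve arrays, whereas acute CpG (10.02, 9.92 and 11.18) overlapped them and acute Pam3CSK4 (9.72 and 9.13) was at or below the lowest of them. The LPS rise of 1.28 passed the test (SE 0.37, adjusted p = 0.0481) but not without naïve replicate 1 or 2 or acute LPS replicate 1 or 2 (adjusted p from 0.0567 to 0.144), under median scaling (0.103) or with no detection filter (0.0857). For Poly(I:C) the difference of 1.38 did not pass (SE 0.32, adjusted p = 0.0633), and it was 1.06 and passed without naïve replicate 3 (adjusted p = 0.0319). With all arrays kept, 3 of 11 other settings called it, among them the fit of all 9 groups (adjusted p = 0.00542). On re-stimulation Irf2 read 10.29 and 9.98 with LPS and 10.52, 10.70 and 10.54 with Poly(I:C), below every acute array of the same ligand. It fell by 1.51 with LPS (SE 0.31, adjusted p = 0.0136) and by 1.16 with Poly(I:C) (SE 0.18, adjusted p = 0.0294). Those calls were lost without re-stimulated LPS replicate 2 (adjusted p = 0.0869) and without replicate 1 or 2 of either Poly(I:C) stage (0.101 to 0.118).

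Irf7, a driver of type I interferon genes and itself interferon-stimulated, went the other way: it was highest after re-stimulation. Naïve arrays read 11.74, 12.55 and 10.37. Acute levels were 13.17, 12.98 and 13.77 with LPS, 13.67, 14 and 13.22 with Poly(I:C), 11.66, 12.13 and 13 with CpG, and 11.25 and 9.83 with Pam3CSK4. Acute LPS and Poly(I:C) arrays lay above all naïve arrays, and CpG and Pam3CSK4 arrays overlapped them. No acute rise of Irf7 passed the test in the fits of 2 groups, with 1.76 for LPS (SE 0.56, adjusted p = 0.0629) and 2.08 for Poly(I:C) (SE 0.57, adjusted p = 0.0972). The LPS rise passed without naïve replicate 3 at 1.16 (adjusted p = 0.04) and without naïve replicate 2 at 2.25 (0.0355). In the fit of all 9 groups the rises with LPS and Poly(I:C) were both called (adjusted p = 0.00823 and 0.0061). Under median scaling both were called too (0.00946 and 0.00163), at 2.12 and 2.59, larger than the 1.76 and 2.08 above.

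After re-stimulation Irf7 read 15.47 and 15.59 with LPS, 16.08, 16.06 and 14.89 with Poly(I:C), 13.28, 13.37 and 13.64 with CpG, and 12.59, 12.99 and 12.25 with Pam3CSK4. With each ligand all re-stimulated arrays lay above all acute arrays. The increase from the acute to the re-stimulated stage was 2.22 log2 units or 4.67-fold for LPS (SE 0.28, adjusted p = 0.00282) and 2.05 or 4.14-fold for Poly(I:C) (SE 0.39, adjusted p = 0.0424). For CpG and Pam3CSK4 it was 1.17 (SE 0.35, adjusted p = 0.12) and 2.07 (SE 0.48, adjusted p = 0.211), neither of which passed. The Pam3CSK4 increase was called under 2 of 11 other settings, among them the fit of all 9 groups (adjusted p = 0.0419). Within slides the difference was positive in 3 of 3 slides for Poly(I:C), at 1.67 to 2.42, in 3 of 3 for CpG, at 0.64 to 1.62, and in 2 of 2 for Pam3CSK4, at 1.34 and 2.42. Against naïve cells Irf7 rose by 3.98 (15.8-fold) with re-stimulated LPS (SE 0.66, adjusted p = 0.0425) and by 4.13 (17.5-fold) with re-stimulated Poly(I:C) (SE 0.63, adjusted p = 0.0189). No left-out array turned the direction of these changes. The Poly(I:C) call between the stages was lost without any of 5 of its 6 arrays, all but re-stimulated replicate 3 (adjusted p from 0.0575 to 0.143). The LPS call against naïve cells was lost without naïve replicate 1 or 2 or either LPS array (0.0624 to 0.313; the lone LPS array is then assumed to vary like the naïve group), and the Poly(I:C) call against naïve cells without naïve replicate 1 or re-stimulated replicate 1 or 2 (0.066 to 0.0816).

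**Figure D1:**
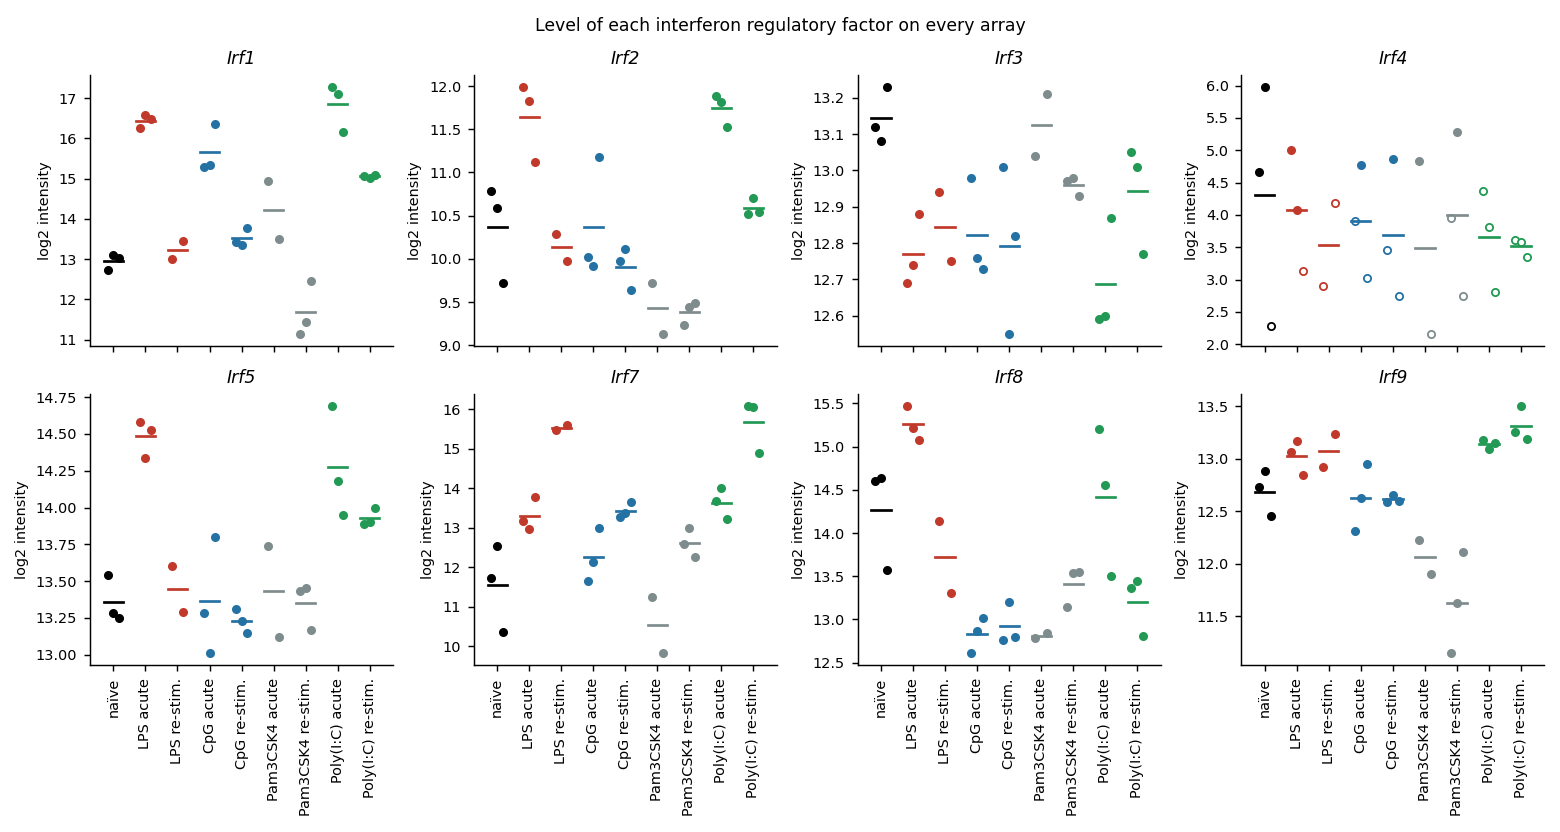
Log2 intensity of each IRF gene on every array (y axis) by group (x axis), 1 panel per gene, with bars at group means and open circles for signals not well above background. Irf1 lies at 15.29 to 17.28 on the acute Poly(I:C), LPS and CpG arrays, Irf7 is highest on the re-stimulated LPS and Poly(I:C) arrays, at 14.89 to 16.08, and Irf3 spans 12.55 to 13.23 over all arrays.

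Irf3, the partner of Irf7 in interferon induction, is present as a protein before stimulation and is switched on by phosphorylation, which an RNA level does not show. Its group means ran from 12.68 in acute Poly(I:C) to 13.14 in naïve cells, a 1.38-fold range against 36-fold for Irf1 and 35.3-fold for Irf7. No change of Irf3 was called in any of the 21 comparisons. The acute Poly(I:C) arrays (12.59, 12.6 and 12.87) lay below the naïve arrays (13.12, 13.08 and 13.23), a difference of -0.46 (SE 0.16, adjusted p = 0.176), with -0.53 to -0.36 within slides. When arrays were scaled to a common median it became 0.13. That scaling also moved the Irf7 difference of this comparison up, to 2.59.

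Irf5, which acts downstream of MyD88, was called higher in acute LPS and lower again after re-stimulation with LPS. Naïve arrays read 13.54, 13.28 and 13.25, acute LPS 14.58, 14.34 and 14.53, and acute Poly(I:C) 14.69, 14.18 and 13.95. Both acute groups lay above the naïve arrays, and CpG (13.28, 13.01 and 13.8) and Pam3CSK4 (13.74 and 13.12) overlapped them. The LPS rise was 1.13 (SE 0.19, adjusted p = 0.00798), and under median scaling 1.64 with no call (adjusted p = 0.0705), while the Poly(I:C) difference of 0.92 did not pass (SE 0.24, adjusted p = 0.0873). That Poly(I:C) difference was called under 4 of 11 other settings, among them the fit of all 9 groups (adjusted p = 0.00593). Re-stimulated LPS read 13.6 and 13.29, a fall of 1.04 from the acute level (SE 0.21, adjusted p = 0.0128) that was lost without replicate 2 of that group (adjusted p = 0.0876). Re-stimulated Poly(I:C) arrays, at 13.89, 13.9 and 14, lay above every naïve array, with a difference of 0.57 (adjusted p = 0.0935).

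Irf8, a factor for the macrophage and dendritic cell lineages, lay above the naïve level with acute LPS and below it with acute CpG and Pam3CSK4, with calls that depended on the fit and on 1 naïve array. The naïve arrays read 14.6, 14.64 and 13.57. Acute LPS arrays (15.47, 15.22 and 15.08) lay above them, whereas acute CpG (12.61, 12.87 and 13.02) and acute Pam3CSK4 (12.78 and 12.84) lay below them and acute Poly(I:C) (15.2, 14.56 and 13.5) spread across them. None of these passed in the fits of 2 groups, with 0.99 for LPS (SE 0.33, adjusted p = 0.0733), -1.44 for CpG (SE 0.34, adjusted p = 0.0665) and -1.47 for Pam3CSK4 (SE 0.4, adjusted p = 0.3). Without naïve replicate 3 all 3 were called, at 0.64 for LPS (adjusted p = 0.0485), -1.79 for CpG (0.01) and -1.82 for Pam3CSK4 (0.0375). With all arrays kept, the fit of all 9 groups also called them (adjusted p = 0.0347, 0.00789 and 0.0321). When arrays were scaled to a common median in place of quantile normalization, the CpG difference was -0.52, on a scale where the median of all tested probes lay at 0.43 in place of -0.07. On re-stimulation with LPS Irf8 read 14.14 and 13.31, a fall of 1.53 from the acute level (SE 0.3, adjusted p = 0.0113) that was lost without re-stimulated replicate 2 (adjusted p = 0.0611). The neutrophil marker sum differed between these same arrays, with 28.7 and 29.8 re-stimulated against 18.9 to 22.1 acute. CpG (12.76, 13.2 and 12.8), Pam3CSK4 (13.14, 13.54 and 13.55) and Poly(I:C) (13.36, 13.44 and 12.81) re-stimulated arrays lay below the naïve arrays, and none of those differences passed in the fits of 2 groups. Without naïve replicate 3 all 3 were called (adjusted p = 0.00372, 0.0192 and 0.0216). The fit of all 9 groups called CpG and Poly(I:C) (0.0101 and 0.0359). Re-stimulated Poly(I:C) arrays also lay below every acute Poly(I:C) array, with -1.83 to -0.69 within slides. The fit of 2 groups did not call this, and the fit of all 9 groups did, at -1.21 (adjusted p = 0.0263). Between stages within slides CpG gave -0.22 to 0.33 and Pam3CSK4 0.37 and 0.71.

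Irf4, a factor of lymphocytes and of alternatively activated macrophages, was near background. Its log2 levels ran from 2.16 to 5.98 over all arrays, and the naïve arrays alone read 4.67, 5.98 and 2.29. No Irf4 change was called in the fits without a block or a left-out array, and in 12 of the 21 comparisons too few of its signals were above background for a test. With the replicate number as a block it was called lower in re-stimulated LPS than in naïve cells, where its signal was above background on 0 of 2 arrays, so no size is given.

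Irf9, the DNA-binding subunit of ISGF3, had means between 11.63 in re-stimulated Pam3CSK4 and 13.31 in re-stimulated Poly(I:C). Naïve arrays read 12.73, 12.88 and 12.45. Re-stimulated Poly(I:C) arrays (13.25, 13.5 and 13.19) lay above them and re-stimulated Pam3CSK4 arrays (11.15, 11.63 and 12.11) below them, with differences of 0.63 (SE 0.2, adjusted p = 0.105) and -1.05 (SE 0.29, adjusted p = 0.0912) that did not pass. Of 11 other settings, 4 called the first and 3 the second, among them the fit of all 9 groups (adjusted p = 0.0403 and 0.00213). Acute Poly(I:C) arrays (13.18, 13.09 and 13.15) were also above the naïve arrays, by 0.45 (adjusted p = 0.205).

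**Figure D2:**
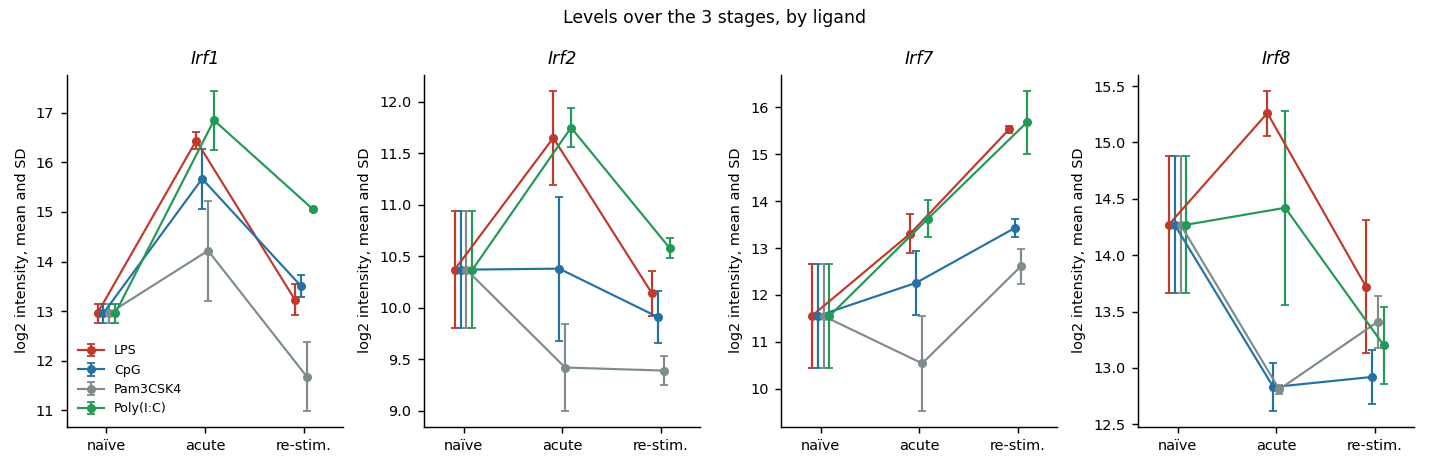
Mean log2 intensity with SD (y axis) of Irf1, Irf2, Irf7 and Irf8 over the naïve, acute and re-stimulated stages (x axis), 1 line per ligand, the naïve arrays being shared by all lines. The Irf1 mean is highest at the acute stage for each ligand, with 12.96, 16.44 and 13.23 for LPS, while Irf7 is highest at the re-stimulated stage for each.

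The first comparison asked how each ligand changed the family in resting cells. Of 8 members tested, acute LPS raised 3 (Irf1, Irf2 and Irf5) and lowered none, where 26.5% of all tested probes were called. CpG raised 1 (Irf1) against 5.72% of all probes and Poly(I:C) raised 1 (Irf1) against 6.03%. Pam3CSK4 changed 0 members, and limma called 0% of all probes there. At an unadjusted p below 0.05 there were 2 of 8 members and 12.4% of all probes. When all 9 groups were fitted together 1 member (Irf8) was called, a count given without the share of all probes in that fit. The median log2 difference over the members was 1.06 for LPS, 0.69 for Poly(I:C), -0.03 for CpG and -0.72 for Pam3CSK4, beside -0.01, -0.1, -0.07 and 0.01 over all tested probes. Without naïve replicate 3 the counts were 5 for LPS, 2 for Poly(I:C), 2 for CpG and 1 for Pam3CSK4, where 37.8%, 10.8%, 11.1% and 2.24% of all probes were called. These comparisons share the naïve arrays, as do those of re-stimulated with naïve cells, so their values are not independent of each other.

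The next comparison asked how re-stimulated cells differed from cells that met the ligand once. No group was treated for 24 h and then left without the second dose. What remained of the first treatment and the response to the second therefore cannot be told apart. The paper's definition of a tolerized gene also required a significant acute rise. For Irf8 with LPS the fit of 2 groups did not call that rise, and the fit of all 9 groups did (adjusted p = 0.0347). With LPS 4 of 8 members fell (Irf1, Irf2, Irf5 and Irf8) and 1 rose (Irf7), where 34.2% of all probes were called. With Poly(I:C) 2 of 7 fell (Irf1 and Irf2) and 1 rose (Irf7), against 4.93%, and with CpG 1 of 7 fell (Irf1), against 3.56%. With Pam3CSK4 limma called 0 members and 0% of all probes. There 3 of 7 members and 13.6% of all probes had an unadjusted p below 0.05. In the fit of all 9 groups 2 members were called, a count given without the share of all probes in that fit. The LPS count was 2 without re-stimulated replicate 2, and 2 with all 27 arrays, which ended the calls of Irf2 (adjusted p = 0.113), Irf5 (0.0641) and Irf7 (0.0548). The Poly(I:C) count was 0 without replicate 1 or 2 of either stage, and the CpG count was 2 without acute replicate 3 and 0 without any other of its arrays.

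Re-stimulated cells were also compared with naïve cells. With LPS 1 of 8 members was higher (Irf7), where 5.67% of all probes were called, and with Poly(I:C) 2 were (Irf1 and Irf7), against 9.03%. For CpG limma called 0 members, against 13.2% of all probes, and 2 under each of 5 other settings. At an unadjusted p below 0.05 there were 3 of 8 members and 31.2% of all probes. For Pam3CSK4 limma called 0 members, against 5.36%, and 3 in the fit of all 9 groups. In the fit of 2 groups 4 of 8 members and 25.3% of all probes had an unadjusted p below 0.05. The CpG and Pam3CSK4 counts under other settings are given without the share of all probes called there. The LPS count was 0 without naïve replicate 1 or 2 or either LPS array, and the Poly(I:C) count 1 without naïve replicate 1 or re-stimulated replicate 1 or 2. Without naïve replicate 3 the CpG count was 3 (Irf2 and Irf8 lower and Irf7 higher), the Pam3CSK4 count 2 (Irf2 and Irf8 lower) and the Poly(I:C) count 4 (Irf4 and Irf8 lower, Irf1 and Irf7 higher), where 26.6%, 16.2% and 16.1% of all probes were called.

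**Figure D3:**
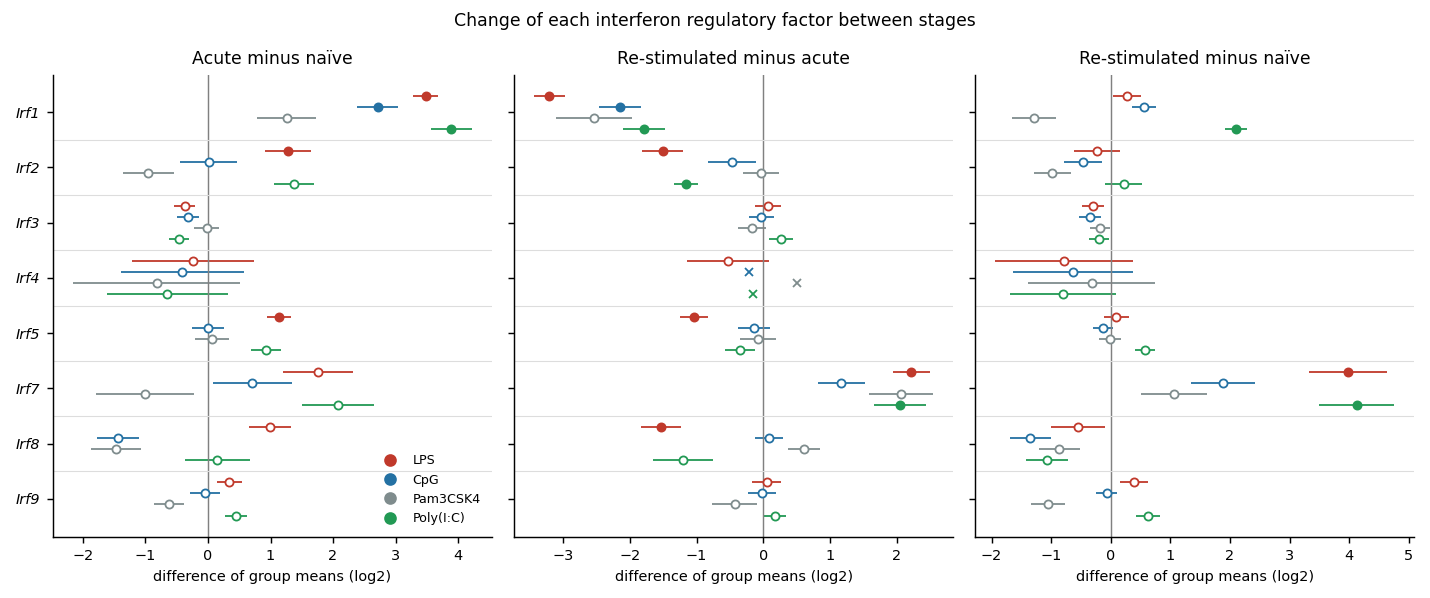
Log2 difference with SE (x axis) of each IRF gene (y axis) in acute against naïve, re-stimulated against acute and re-stimulated against naïve cells, coloured by ligand, filled where called and crossed where not tested. In the middle panel the Irf1 differences lie between -3.21 and -1.79 and the Irf7 differences between 1.17 and 2.22.

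Differences between ligands were tested where the arrays shared slides, in 3 acute and 6 re-stimulated pairs. Among the acute pairs, Poly(I:C) exceeded Pam3CSK4 in Irf2 by 2.33 log2 units (SE 0.26, adjusted p = 0.0239), 1 member of 7 where 2.42% of all probes were called. With the replicate number as a block this call was lost (adjusted p = 0.0627), as it was without either Pam3CSK4 array or acute Poly(I:C) replicate 1 or 2 (0.0645 to 0.125). The Irf2 call was also lost with no detection filter (adjusted p = 0.0542) and with all 27 arrays (0.744). Poly(I:C) against CpG gave 0 calls in limma, against 0.173% of all probes, with 6 members and 13.9% of all probes at an unadjusted p below 0.05. CpG against Pam3CSK4 gave 0 calls, against 0%, with 2 members and 3.47% of all probes at an unadjusted p below 0.05. Over the 3 acute pairs together the fit of all 9 groups called 9 differences, a count given without the share of all probes in that fit.

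After re-stimulation the ligands separated most by Irf7 and Irf1. Poly(I:C) exceeded Pam3CSK4 in 4 members of 7, against 4.11% of all probes. These were Irf1 by 3.38 or 10.4-fold (SE 0.35, adjusted p = 0.00587), Irf7 by 3.07 or 8.39-fold (SE 0.38, adjusted p = 0.00974), Irf2 by 1.2 (SE 0.17, adjusted p = 0.0165) and Irf9 by 1.68 (SE 0.28, adjusted p = 0.0256). Every one of these differences was positive within all 3 slides, with 2.63 to 3.94 for Irf1 and 1.07 to 2.1 for Irf9. The replicate block ended the calls for Irf2 (adjusted p = 0.0609) and Irf9 (0.0748), as did leaving out replicate 1 or 2 of either group (0.0648 to 0.0996), and the Irf7 call was lost without Pam3CSK4 replicate 1 (0.0539). With no detection filter the Irf2 and Irf9 calls were lost too (0.0561 and 0.0525). Poly(I:C) exceeded CpG in 2 members, against 2.47% of all probes, Irf1 by 1.54 (SE 0.17, adjusted p = 0.0216) and Irf7 by 2.25 (SE 0.35, adjusted p = 0.034), both lost with the block (0.0604 and 0.0867). Without replicate 1 or 2 of either group neither held (0.0587 to 0.143), and Irf7 was also lost without CpG replicate 3 (0.0668) and with no detection filter (0.0591).

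Re-stimulated LPS cells had more Irf7 than CpG or Pam3CSK4 cells. Against CpG the difference was 2.1 (SE 0.19, adjusted p = 0.0262), 1 member where 0.316% of all probes were called, with 2.19 and 2.22 within slides and an adjusted p of 0.0523 with the block. This call was also lost in the fit of all 9 groups (adjusted p = 0.172), with the slide as a random block (0.0954), with no detection filter (0.087) and with all 27 arrays (0.742). Against Pam3CSK4 it was 2.92 (SE 0.27, adjusted p = 0.0203), again 1 member, where 0.909% of all probes were called, with 2.6 and 2.88 within slides. With all 27 arrays that call was lost (adjusted p = 0.43). Irf7 with LPS and with Poly(I:C) differed by -0.15 (SE 0.41, adjusted p = 0.913), with -0.61 and -0.47 on the shared slides and an adjusted p of 0.189 with the block, which does not show that they were equal. Between those groups Irf1 was the member called, lower with LPS at a difference of -1.83 log2 units (SE 0.21, adjusted p = 0.0374), where 0.957% of all probes were called, and the difference within slides was -2.06 and -1.56. The Irf1 call was lost with all 27 arrays (adjusted p = 0.377) and with no detection filter (0.101). CpG against Pam3CSK4 gave 0 calls in limma, against 0% of all probes, with 5 members and 4.32% of all probes at an unadjusted p below 0.05. Leaving out replicate 1 or 2 of LPS or of the other ligand ended each of these calls with LPS (adjusted p from 0.0607 to 0.334).

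Acute LPS, on slides of its own, is set beside the other ligands without a test. Its means were 16.44 for Irf1, 11.65 for Irf2, 14.49 for Irf5, 13.31 for Irf7 and 15.26 for Irf8, beside 16.85, 11.75, 14.27, 13.63 and 14.42 for acute Poly(I:C) and 15.67, 10.38, 13.36, 12.26 and 12.83 for acute CpG. In the order of the 9 group means of Irf1, the neighbours that did not overlap were acute CpG and re-stimulated Poly(I:C), re-stimulated Poly(I:C) and acute Pam3CSK4, and naïve and re-stimulated Pam3CSK4. For Irf7 the means of re-stimulated Poly(I:C) (15.68 ± 0.68 SD, n = 3) and LPS (15.53 ± 0.08 SD, n = 2) came first and did not separate, and the next was acute Poly(I:C) at 13.63 ± 0.39 (SD, n = 3).

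Across the 9 group means Irf2 and Irf5 followed each other most closely of the member pairs, with a Pearson r of 0.88, then Irf1 and Irf2 at 0.83 and Irf1 and Irf5 at 0.78. Irf1 and Irf7 had an r of 0.14. These values rest on 9 means that share arrays of 1 normalization and are given as descriptions. Among 10977 other probes whose means varied, those most like Irf1 named Slfn8 (r = 0.985) and Trim56 (0.984), those most like Irf2 named BC013712 (0.986), Rbm43 (0.982) and Phc2 (0.981), and those most like Irf7 named Ms4a4c (0.98), Ms4a4b (0.979) and H2-T24 (0.974). Irf9 was followed by Rtp4 (0.97), Trim25 (0.964) and Trim34a (0.945), Irf5 by Tm4sf5 (0.984), Kalrn (0.981) and Hmgn3 (0.98), and Irf8 by Ikzf2 (0.965) and Krtap8-2 (0.94). Unnamed transcript probes also ranked beside Irf1 and Irf8, and the means of Irf3, Irf4 and Irf5 themselves varied by less than the SD of 0.5 asked of the other probes, so the likeness to Irf5 rests on small differences and none is given for Irf3 and Irf4.

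Upstream of the IRFs, of 13 adapters and kinases, 5 rose and 1 fell with acute LPS, among them Tank (2.68), Myd88 (2.27) and Ticam2 (2), with Mavs at -1.03, where 26.5% of all probes were called, and 3 of 13 rose with acute Poly(I:C), Tank (2.08), Myd88 (1.72) and Azi2 (1.21), against 6.03%. The list medians were 0.24 and 0.21. CpG raised 2 and lowered 1, against 5.72% of all probes, and Pam3CSK4 changed 0, against 0%. Of 7 tested genes of type I interferon and ISGF3, acute LPS raised 3 and lowered 1, CpG raised 1, Pam3CSK4 changed 0 and Poly(I:C) raised 2, with medians of 0.82, 0.25, 0.22 and 0.84. Of all probes, 26.5%, 5.72%, 0% and 6.03% were called there, in the same order. Ifnb1, the interferon that Irf3 and Irf7 induce, rose by 10.33 log2 units with acute LPS, 8.63 with Poly(I:C) and 6.86 with CpG. Between the stages Ifnb1 fell by 4.45 with LPS, and with Poly(I:C) it differed by 0.84 (adjusted p = 0.406). The same LPS step lowered Stat2 by 1.42 and raised Ifnar1 by 2.25 and Ifnar2 by 1.02. Irf7 and Ifnb1 thus went in opposite directions between the LPS stages.

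Downstream, 14 genes with a known ISRE were followed. Acute LPS raised 14 of 14, with a median difference of 5 log2 units beside -0.01 for all tested probes, and Poly(I:C) raised 14 with a median of 4.94. CpG raised 6 of 14 (median 2.51) and Pam3CSK4 changed 0 (median -0.14). Of all probes, 26.5% were called with acute LPS, 6.03% with Poly(I:C), 5.72% with CpG and 0% with Pam3CSK4. The genes with the largest differences were the chemokine gene Cxcl10 (9.84 with LPS and 9.57 with Poly(I:C)), the antiviral genes Rsad2 (7.18 and 6.79) and, with LPS, Ifit1 (6.31) and, with Poly(I:C), Mx1 (6.09). Between the stages LPS lowered 11 and raised 1, with Rsad2 at -3.88, Ifit1 at -3.61 and Ifit2 at -3.56 and a median of -2.2, whereas Poly(I:C) lowered 2, Rsad2 (-1.67) and Mx1 (-1.24), with a median of -0.66. CpG and Pam3CSK4 changed 0 between the stages, with medians of -0.33 and -0.22. The shares of all probes called between the stages were 34.2% with LPS, 4.93% with Poly(I:C), 3.56% with CpG and 0% with Pam3CSK4. Compared with naïve cells, 9 of 14 targets were raised after re-stimulation with LPS, 9 with CpG, 14 with Poly(I:C) and 1 with Pam3CSK4, which was Zbp1 (2.12, adjusted p = 0.0254). In the same order 5.67%, 13.2%, 9.03% and 5.36% of all probes were called. Of the 10 targets with a promoter in the RefSeq table, 6 held the ISRE core, as did 3.46% of 27025 genes, and of the 8 IRF genes 1 did. The targets were listed for their known ISRE, so their high share follows from that choice.

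**Figure D4:**
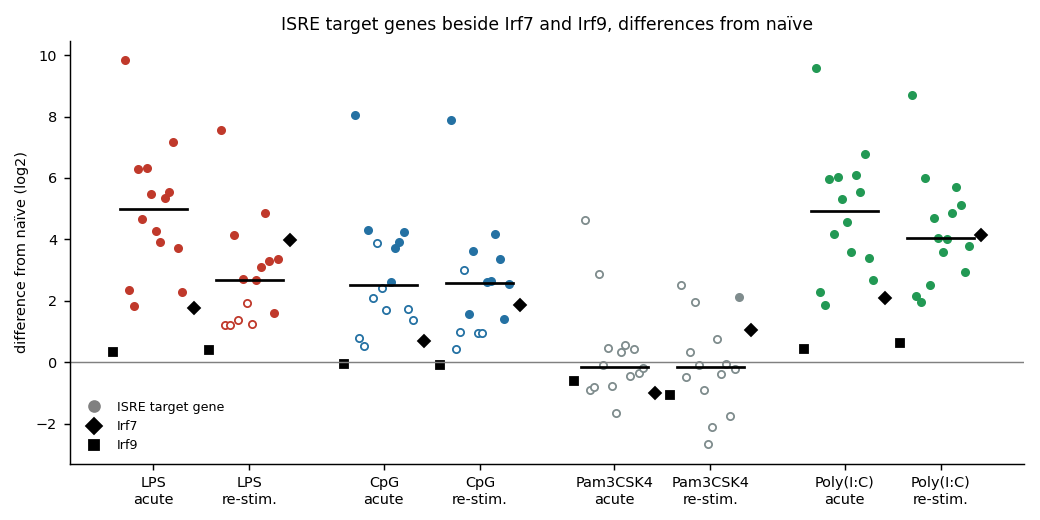
Log2 difference from naïve cells (y axis) of 14 ISRE target genes at the acute and re-stimulated stages of each ligand (x axis), filled where called, with a black bar at the median and the changes of Irf7 (diamonds) and Irf9 (squares). For LPS the target median goes from 5 to 2.7 while Irf7 goes from 1.76 to 3.98, and for Poly(I:C) the median is 4.94 and then 4.04.

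Of the 5 measured partners of Irf4 and Irf8, acute LPS raised 3, Batf2 (4.82), Ikzf1 (2.94) and Batf (2.2), and Poly(I:C) raised 2, against the 26.5% and 6.03% of all probes given above. With LPS 4 were lower at the second stage, among them Batf2 (-3.88), Ikzf1 (-2.21) and Spib (-2.02), where 34.2% of all probes were called, and with Poly(I:C) 1 was, against 4.93%. Among 6 negative regulators of IRFs, Socs1, an inhibitor of cytokine signalling, rose by 5.96 with acute LPS, 4.63 with CpG and 6.69 with Poly(I:C), and Trim21, a ubiquitin ligase, by 2.97 with LPS and 2.88 with Poly(I:C). Irf2bp2, a co-repressor that binds Irf2, fell by 4.9 with acute LPS, by 2.73 with Poly(I:C) and by 2.62 with CpG, and rose again between the stages by 4.49 with LPS and 2.19 with Poly(I:C). Irf2bp2 and Irf2 therefore went in opposite directions with LPS at both steps. Of 8 tested cytokine and effector genes of Irf1, Irf5 and Irf8, acute LPS raised 8, with Il6 (12.89), Il12b (9.47) and Ccl5 (6.99) first, CpG raised 7 of 8, Poly(I:C) 6 of 7 and Pam3CSK4 0 of 7. In the same order 26.5%, 5.72%, 6.03% and 0% of all probes were called. LPS lowered 6 of 8 of these genes between the stages, among them Il12b (-5.29), Il6 (-4.79) and Il15 (-3.92), where 34.2% of all probes were called. CpG lowered 2 of 9, Il15 (-3.33) and Il27 (-2.2), against 3.56%.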

How the data were processed

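Total RNA of BMDM cultures was hybridised to 1-colour Agilent arrays. The authors applied RMA background correction and quantile normalization and deposited log2 values, which are the levels used here; they were remade from the deposited scanner intensities with a median absolute difference of 0.0355, and 0.113 at most for a member probe. Quantile normalization gives every array the same distribution, so changes are relative to the other genes. Of 27 arrays, re-stimulated LPS replicate 3 and acute Pam3CSK4 replicate 2 had no deposited values and were left out of the fits. The number of arrays limits the precision.

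For each of 21 pairs of groups a model was fitted to these log2 values in limma 3.58.1 (R 4.3.3), over the non-control probes that exceeded background well on 2 or more arrays of a group, and p-values were adjusted by the Benjamini-Hochberg method over all of them. A change was called at an adjusted p below 0.05 and at least 1.5-fold. The fits were tested on simulated data. Irf1 is given by its probe with the highest mean; the other is given where noted. For member probes, a fold against signals not well above background is the lower bound set by the dimmest signal above background on each array. Changes of the other genes are plain differences of group means with no such bound. Groups came from the labels. The members and gene lists were chosen with earlier results of these data known. Named were all members, up to 3 called genes of largest change per list and comparison, and the 3 probes most like each member; genes named beyond that (Zbp1, Ifnb1 in the Poly(I:C) stages, Ifnar2 and Mavs) were chosen after their values were seen.

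Replicate numbers mark shared slides, except for acute LPS. Deviations from group means correlated at 0.12 to 0.48 for same-numbered arrays in the CpG, Poly(I:C) and re-stimulated Pam3CSK4 comparisons with 3 pairs. The comparisons with acute Pam3CSK4 had 2 pairs each, at 0.5 and 0.53 against naïve cells and 0.26 and 0.27 between the stages. In the comparisons with acute LPS, whose arrays share no slide with the others, the values were 0.01 to 0.12. Re-stimulated LPS against naïve cells, on shared slides, gave 0.08 and 0.09, so its differences within slides rest on weak pairing. Pairs of ligands were not checked in this way. The reported tests did not use the numbers as pairs, and the replicate block was an alternative fit. Alternatives were the replicate block, other background corrections and scalings (normexp with offset 50, the 75th percentile, the median), no detection filter, the adjusted p alone, a fit of all 9 groups with and without the slide as a random block, all 27 arrays, the mean of a gene's probes, and leaving out each array.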

Additional observations from a re-analysis of the deposited data

Results flagged for a closer look

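In 10 cases a member differed between ligands at the same stage by a test of the difference itself. At the acute stage this was Irf2, higher with Poly(I:C) than with Pam3CSK4 by 2.33 log2 units. After re-stimulation Irf7 was higher with LPS than with CpG by 2.1 and than with Pam3CSK4 by 2.92, and Irf1 differed between LPS and Poly(I:C) by -1.83. Poly(I:C) exceeded CpG in Irf1 by 1.54 and in Irf7 by 2.25, and exceeded Pam3CSK4 in Irf1 by 3.38, in Irf2 by 1.2, in Irf7 by 3.07 and in Irf9 by 1.68. The within-slide differences had the same sign as the mean in each of the 10. Each pair tested 7 members, and 0% to 4.11% of all probes were called in it. With the replicate number as a block, calls were lost for acute Irf2, for Irf7 of LPS against CpG, and for Irf1 and Irf7 of Poly(I:C) against CpG. That block also ended those for Irf2 and Irf9 of re-stimulated Poly(I:C) against Pam3CSK4. Leaving out single arrays ended every call but Irf1 of Poly(I:C) against Pam3CSK4. Neutrophil marker sums differed by replicate number and also between ligands on the same slide. On replicates 1, 2 and 3 they were 33.9, 34.8 and 21.1 with re-stimulated Poly(I:C) and 28.8, 27.8 and 18.3 with CpG. With Pam3CSK4 they were 26.8, 29.8 and 16.7, and with LPS 29.8 and 28.7 on replicates 1 and 2. Their part in these differences was not tested.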

How the results depend on the processing

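None of the 27 called member changes turned direction under any setting tried, and calls for Irf1 with acute LPS, acute Poly(I:C), re-stimulated Poly(I:C) against naïve cells and against Pam3CSK4, and LPS re-stimulated against acute, held under every setting and without each array. Of 129 differences that were not called, 52 changed sign under at least 1 setting, among them Irf3 in acute Poly(I:C) against naïve cells, 0.13 under median scaling. The causes of the shifts below were not tested. Counts under other settings, here and above, are given without the share of all probes called under them. A changed count therefore does not single out the members.

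Counts of members called moved as follows, in the order LPS, CpG, Pam3CSK4 and Poly(I:C), with counts within 1.5 times the reported ones not listed. For acute against naïve cells (reported 3, 1, 0 and 1), normexp gave 5 for LPS, 3 for Poly(I:C) and 2 for CpG, the 75th percentile 5 for LPS and 2 for Poly(I:C), median scaling 2 for Poly(I:C), and the fit of all 9 groups, with or without the slide as a random block, 5, 2, 1 and 4. For re-stimulated against acute cells (5, 1, 0 and 3), median scaling gave 3 and all 27 arrays 2 for LPS, no detection filter gave 0 for Poly(I:C) and 0 for CpG, and the fit of all 9 groups, with or without the slide block, 2 for Pam3CSK4. For re-stimulated against naïve cells (1, 0, 0 and 2), no detection filter and all 27 arrays gave 0 for LPS, normexp gave 2 for CpG and 2 for Pam3CSK4, the 75th percentile 2 for CpG and 4 for Poly(I:C), median scaling 2 and the mean of a gene's probes 1 for CpG, and the fit of all 9 groups, with or without the slide block, 4 for Poly(I:C), 3 for Pam3CSK4 and 2 for CpG. Among ligand differences (1 acute and 9 re-stimulated), the acute count was 3 with normexp, 4 with median scaling, 0 without the filter, 0 with all 27 arrays and 9 in the fit of all 9 groups with or without the slide block, and the re-stimulated count was 4 without the filter and 14 with the slide block. Median scaling moved the median of all tested probes from 0.01 to 0.78 in re-stimulated CpG against naïve cells, so its differences are relative to that shift.

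With the replicate number as a block, the count for re-stimulated LPS against naïve cells was 2, that of acute ligand differences 0 and that of re-stimulated ligand differences 4, and no call between stages was lost. Leaving out each array gave, in the same order, 2 to 5, 0 to 2, 0 to 1 and 1 to 2 for acute against naïve cells, 2 to 5, 0 to 2, 0 to 0 and 0 to 3 for re-stimulated against acute cells, 0 to 1, 0 to 3, 0 to 2 and 1 to 4 for re-stimulated against naïve cells, 0 to 3 for acute and 4 to 12 for re-stimulated ligand differences.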

Other observations

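The arrays without deposited values could still be read from the remade scanner intensities. Re-stimulated LPS replicate 3, with 92.32% of probes well above background, read 12.6 for Irf1, 14.52 for Irf7, 8.28 for Irf2 and 13.75 for Irf8 on the log2 scale. Acute Pam3CSK4 replicate 2, with 99.93% of probes well above background and 22.65% of spots marked as non-uniform, read 14.51 for Irf1, 11.42 for Irf7 and 3.3 for Irf2.

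Among markers of other cell types, Siglech, known from plasmacytoid dendritic cells, lay at 14.86 to 16.9 on all 25 arrays. The dendritic cell marker Zbtb46 ran from 3.11 to 10.67, and the summed log2 level of 4 conventional dendritic cell markers was 11.9 to 13.2 in naïve cells, 17.9 to 20.2 after acute LPS and 17.1 to 21.5 after acute CpG, with Xcr1 above background on 0 arrays. Between re-stimulated LPS and CpG cells the median difference over the ISRE targets was 0.24 log2 units, while Irf7 differed by 2.1. There limma called 0 of the 14 genes, against 0.316% of all probes.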
